A study of Mus musculus with 7 samples.

Results

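The SREBP precursors and the genes that escort, hold back and cleave them were examined in mouse liver. They are Srebf1, Srebf2, Scap, Insig1, Insig2, Mbtps1 and Mbtps2, chosen by gene symbol for their known roles, 7 of the 21706 genes listed. All 7 passed the filter on low values, a TPM (a share of a library's transcripts, corrected for length) of at least 1 in at least 3 libraries, as did 10455 genes in all. Liver mRNA was sequenced from male C57BL/6 wild-type mice that were 8 weeks old and received intraperitoneal injections for 2 weeks. One group (oligo-1, 3 livers) received a synthetic tsRNA-Glu-CTC oligonucleotide, a copy of a small RNA cut from a glutamate transfer RNA, and the other (control, 4 livers) a control oligonucleotide. By the study's account the mice of both groups were kept on low-fat, low-cholesterol semisynthetic chow, were injected every other day, and each library came from 1 mouse. The comparison addresses whether raising this small RNA alters hepatic lipid genes. A synthetic oligonucleotide reaches all cells that take it up and lacks the modifications of the endogenous RNA, which limits the model, and whole liver was sequenced.

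SREBPs are transcription factors of lipid synthesis that are made as precursors in the membrane of the endoplasmic reticulum (ER). SCAP binds the precursor and escorts it in COPII vesicles to the Golgi when sterols are low, where site-1 protease (S1P, encoded by Mbtps1) and site-2 protease (S2P, encoded by Mbtps2) cut it in turn and release the part that enters the nucleus. INSIG1 and INSIG2 bind SCAP and hold the complex in the ER when sterols are plentiful. In liver, SREBP2 mainly drives genes of cholesterol synthesis and uptake, and SREBP1c mainly those of fatty acid synthesis. Insig1 is itself a target of nuclear SREBP, whereas a liver transcript of Insig2 is lowered by insulin and raised by fasting. Only mRNA values were examined here, so neither the cleaved proteins nor their activity can be read from them. By the study's account, western blots of livers given this treatment showed more precursor and nuclear SREBP2 protein. The study reported no effect on INSIG1, INSIG2 or SCAP protein.

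Precursor, escort and Insig1 mRNAs were higher in oligo-1 livers, Insig2 mRNA was lower, and the mRNAs of the proteases overlapped between the groups. Srebf1, Srebf2, Scap and Insig1 lay above all 4 controls in every oligo-1 liver, a pattern seen in 2% of all genes tested, and Insig2 lay below all 4 controls, as did 4.98% of all genes. In the limma fit across 10455 genes, 4 members were higher at an unadjusted p below 0.05, against 1.81% of all genes, and 1 was lower, against 4.25% of all genes. After Benjamini-Hochberg adjustment over all genes, 0 members and 0% of all genes passed 0.05, so no member is called changed. The median member had a log2 fold change of 0.46, and the median of all genes tested was -0.16 (fold changes are oligo-1 over control on the log2(TPM + 1) scale, which understates low genes). The count of 4 higher members was 2 without control 2, without oligo-1 liver 1 or without oligo-1 liver 2, where Scap missed 0.05 each time, together with Srebf1 (without control 2 or oligo-1 liver 2) or Srebf2 (without oligo-1 liver 1). Without control 3, limma called Insig1 at an adjusted p of 0.022, as 1 of 29 genes called among 10353 tested.

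**Figure D1:**
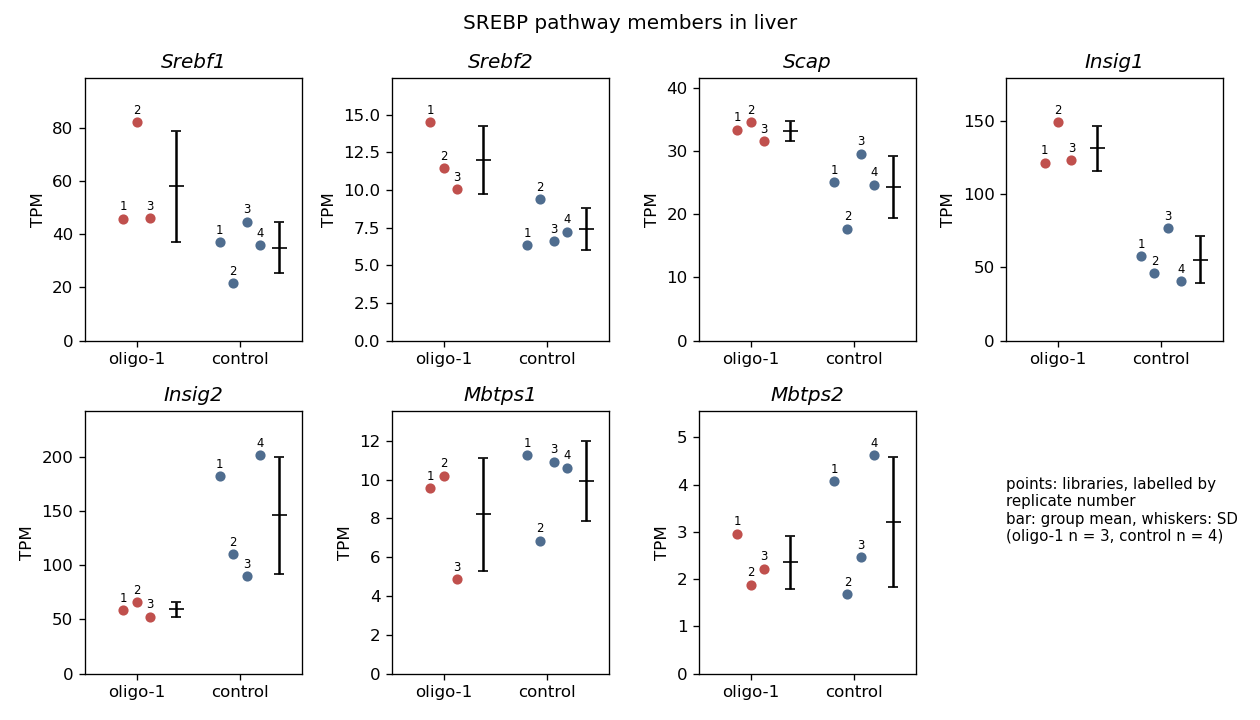
TPM of each member in every library, with oligo-1 livers on the left and controls on the right of each panel. Points carry the replicate number, and the bar and whiskers are the group mean and SD (n = 3 and n = 4). Insig1 lay between 121.4 and 148.9 TPM in oligo-1 livers and between 40.4 and 76.7 TPM in controls, and Insig2 between 52.6 and 66.2 TPM in oligo-1 livers and between 90.1 and 202.0 TPM in controls.

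The libraries were not alike in composition. Controls 1 and 4 stood apart from the other 5 libraries in Mup genes and in Kupffer and stellate cell markers. Major urinary protein (Mup) genes, abundant hepatocyte products, took 8.45% to 12.7% of the listed TPM in oligo-1 livers and 1.44%, 11.4%, 10.2% and 1.63% in controls 1 to 4. The 10 Kupffer cell markers, genes of the resident liver macrophages, summed to 100.8 to 130.0 TPM in oligo-1 livers and to 576.7, 91.6, 79.2 and 726.8 TPM in controls 1 to 4, and 0 of the 10 had an unadjusted limma p below 0.05. The 8 stellate cell and fibroblast markers summed to 87.3 to 101.8 TPM in oligo-1 livers and to 342.1, 92.2, 92.1 and 319.7 TPM in controls 1 to 4. The 8 hepatocyte markers, Alb and Ttr among them, summed to 75414 to 87469 TPM in oligo-1 livers and 76021 to 87206 TPM in controls, and no marker list had a gene at 0 in all libraries. Alb weighs most in that sum. Of the 8, 1 was higher and 2 were lower at an unadjusted limma p below 0.05, Ttr above all controls (log2 fold change 0.31), Cps1 (-0.51), and Cyp3a11 below all controls (-1.63), at 295.6, 330.5 and 243.2 TPM in oligo-1 livers, against 2489, 423.1, 424.0 and 1428 TPM in controls 1 to 4. The 8 endothelial markers summed to 81.8 to 95 TPM in oligo-1 livers and 66.6 to 103.5 TPM in controls, and Clec4g weighs most in that sum. Of the 8, 0 were higher and 1 was lower at an unadjusted limma p below 0.05. The lower one, Lyve1, had 1.37, 1.54 and 3.94 TPM in oligo-1 livers, against 11.6, 6.58, 3.20 and 10.6 TPM in controls (log2 fold change -1.42). The 6 cholangiocyte markers, of which 3 were tested, summed to 23.0 to 54.6 TPM and 22.3 to 52.5 TPM, mostly from Spp1. Control 3 differed in another way, with the fewest genes above 0. It had 13046 such genes, against 16089, 15261 and 15913 in controls 1, 2 and 4. Oligo-1 livers had 15504, 15420 and 15541. The cause was not tested. Sequencing depth is unknown, because TPM does not keep it. In whole liver, fewer cells of a type cannot be told apart from less RNA per cell.

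Srebf2, which encodes SREBP2 (ENSMUSG00000022463.8; chromosome 15, 82147181 to 82205379, plus strand, mm10), was the lower of the precursor genes. It had 14.5, 11.4 and 10.1 TPM in oligo-1 livers, against 6.33, 9.41, 6.60 and 7.24 TPM in controls 1 to 4. The groups did not overlap, although control 2 came within 1 TPM of the lowest oligo-1 liver. Means were 12 ± 2.28 TPM in oligo-1 livers (SD, n = 3) and 7.40 ± 1.40 TPM in controls (SD, n = 4). The log2 fold change was 0.63 (SE 0.22, 95% interval 0.15 to 1.12, limma adjusted p = 0.756), with an unadjusted p below 0.05. Ranked among all genes tested within each library, Srebf2 stood at percentiles 67.8, 61.3 and 62.4 in oligo-1 livers, against 36.4, 61.2, 48.1 and 41.7 in controls, so on ranks control 2 and oligo-1 liver 2 were level. Without controls 1 and 4 the log2 fold change was 0.53, with an unadjusted p still below 0.05.

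The promoter of Srebf2 is shown because SREBPs are known to act on their own genes. RefSeq gives Srebf2 1 start site, and the window from 250 bases before it to 50 after it (chr15:82147019-82147318, GRCm38.p6, the assembly of mm10, plus strand) reads as follows, with motif matches in capitals.
Srebf2: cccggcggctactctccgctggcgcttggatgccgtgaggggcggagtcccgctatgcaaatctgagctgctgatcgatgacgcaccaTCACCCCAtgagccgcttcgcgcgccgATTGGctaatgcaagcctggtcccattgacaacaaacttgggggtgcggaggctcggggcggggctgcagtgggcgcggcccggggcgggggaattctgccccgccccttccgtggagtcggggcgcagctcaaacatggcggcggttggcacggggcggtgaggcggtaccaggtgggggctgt
The capitals mark TCACCCCA, a match to the sterol regulatory element core TCACNCCA to which SREBPs bind, first base at -162 from the start site, and ATTGG, the reverse complement of the CCAAT box bound by NF-Y, a usual partner of SREBPs, at -135. Both strands were searched, in 32851 mouse windows of the same length, and the letters of the sterol element were chosen after the windows had been seen. TCACNCCA was found in 4.36% of those windows and CCAAT in 37.4%. The Srebf2 window held 0 copies of the palindromic E-box CACGTG, present in 7.15% of windows, and 1 copy of the wider E-box CANNTG, which takes in CACGTG and was present in 72.3%. A match describes letters in a window and is not evidence of binding. In the same way, a window without a match may hold an element of other letters.

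Srebf1 encodes SREBP1a and SREBP1c from different start sites (ENSMUSG00000020538.15; chromosome 11, 60199089 to 60222581, minus strand, mm10), which the deposited gene values do not separate. It had 45.8, 82.1 and 45.9 TPM in oligo-1 livers, against 37.0, 21.6, 44.7 and 35.9 TPM in controls. Oligo-1 liver 2 was far above the other livers, while oligo-1 livers 1 and 3 were barely above control 3. Means were 57.9 ± 20.9 TPM in oligo-1 livers (SD, n = 3) and 34.8 ± 9.62 TPM in controls (SD, n = 4), with a log2 fold change of 0.71 (SE 0.29, 95% interval 0.05 to 1.36, limma adjusted p = 0.768), and the unadjusted p was below 0.05. Without oligo-1 liver 2 the log2 fold change was 0.43, and without control 2, the lowest control, it was 0.50, in both cases with an unadjusted p above 0.05. Of the 3 RefSeq start sites of Srebf1, 2 had a CCAAT box in the window and 0 had the sterol element core or CACGTG. Sterol elements of other letters were not searched for, so no statement on SREBP binding at Srebf1 follows.

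Both precursor genes were higher, and the balance between them did not differ detectably. Srebf1 exceeded Srebf2 3.15, 7.17 and 4.55 times in oligo-1 livers, against 5.85, 2.30, 6.77 and 4.96 times in controls, TPM being per length. The log2 ratio of Srebf1 to Srebf2 differed by 0.02 between the groups (exact permutation test, two-sided, p = 0.971, adjusted p = 0.971 over the 4 ratios and sums tested). Its sign turned to -0.31 without control 2 and to -0.28 without oligo-1 liver 2. Across the 7 livers the precursors varied apart from each other (Pearson r = 0.33), and the highest Srebf2 value, in oligo-1 liver 1, was not in the liver with the highest Srebf1.

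Scap, the escort (ENSMUSG00000032485.14; chromosome 9, 110333288 to 110384950, plus strand, mm10), had 33.4, 34.6 and 31.6 TPM in oligo-1 livers, against 25.1, 17.7, 29.6 and 24.7 TPM in controls. The oligo-1 livers were close together (33.2 ± 1.55 TPM, SD, n = 3) and the controls more spread (24.3 ± 4.90 TPM, SD, n = 4), with control 3 the nearest to oligo-1. The log2 fold change of 0.46 was the smallest of the 4 higher members (SE 0.20, 95% interval 0.01 to 0.90, limma adjusted p = 0.768), with an unadjusted p just below 0.05. It was 0.51 without controls 1 and 4, where the unadjusted p was just above 0.05. Over the 7 livers, Scap followed Srebf1 (r = 0.91) and Insig1 (r = 0.86) more closely than Srebf2 (r = 0.42). These correlations describe 7 libraries of 2 groups and carry no test. The RefSeq windows of Scap overlap and share a single CACGTG, at 28 from the first start site and -40 from the next, and neither held the sterol element core.

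The Insig genes had the largest log2 fold changes of the 7 members, in opposite directions. Insig1 (ENSMUSG00000045294.11; chromosome 5, 28071363 to 28078662, plus strand, mm10) had 121.4, 148.9 and 122.8 TPM in oligo-1 livers, against 57.5, 46.0, 76.7 and 40.4 TPM in controls. Every oligo-1 liver was well above the highest control, control 3. Means were 131.0 ± 15.5 TPM in oligo-1 livers (SD, n = 3) and 55.1 ± 16.0 TPM in controls (SD, n = 4), a ratio of 2.38. The log2 fold change was 1.27 (SE 0.23, 95% interval 0.76 to 1.78, limma adjusted p = 0.202), the 14th smallest p among the genes tested.

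Insig2 (ENSMUSG00000003721.14; chromosome 1, 121304353 to 121332589, minus strand, mm10) had 58.9, 66.2 and 52.6 TPM in oligo-1 livers, against 182.5, 110.4, 90.1 and 202.0 TPM in controls. The controls split into a higher pair, 1 and 4, and a lower pair, 2 and 3, and all were above the oligo-1 livers. Means were 59.2 ± 6.83 TPM in oligo-1 livers (SD, n = 3) and 146.3 ± 54.3 TPM in controls (SD, n = 4), so that controls had 2.47 times the oligo-1 level. The log2 fold change was -1.22 (SE 0.28, 95% interval -1.85 to -0.58, limma adjusted p = 0.410), with the 45th smallest p. The control livers highest in Insig2 were those high in Kupffer and stellate cell markers and low in Mup. Without controls 1 and 4 the log2 fold change was -0.75 for Insig2 (limma adjusted p = 0.193) and 1.12 for Insig1 (limma adjusted p = 0.158), and the groups still did not overlap in either gene.

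The promoter windows of the Insig genes are shown together because their mRNAs went opposite ways. Insig1 has 1 RefSeq start site (chr5:28071162-28071461, plus strand) and Insig2 has 3, of which the outermost (chr1:121332540-121332839, minus strand) and the next (chr1:121327975-121328274, minus strand) are given, GRCm38.p6. Capitals mark CACGTG and CCAAT or its reverse complement ATTGG.
Insig1: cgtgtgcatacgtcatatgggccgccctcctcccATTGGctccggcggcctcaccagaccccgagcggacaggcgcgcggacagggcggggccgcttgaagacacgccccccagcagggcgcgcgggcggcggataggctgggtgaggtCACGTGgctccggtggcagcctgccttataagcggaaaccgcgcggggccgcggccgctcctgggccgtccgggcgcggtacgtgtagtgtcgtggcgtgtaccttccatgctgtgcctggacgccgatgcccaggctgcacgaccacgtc
Insig2, outermost start: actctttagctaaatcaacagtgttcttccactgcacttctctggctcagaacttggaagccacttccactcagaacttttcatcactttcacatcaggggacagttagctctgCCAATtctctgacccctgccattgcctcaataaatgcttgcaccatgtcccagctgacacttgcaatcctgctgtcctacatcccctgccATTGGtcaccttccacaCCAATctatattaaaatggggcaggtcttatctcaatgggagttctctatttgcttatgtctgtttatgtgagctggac
Insig2, next start: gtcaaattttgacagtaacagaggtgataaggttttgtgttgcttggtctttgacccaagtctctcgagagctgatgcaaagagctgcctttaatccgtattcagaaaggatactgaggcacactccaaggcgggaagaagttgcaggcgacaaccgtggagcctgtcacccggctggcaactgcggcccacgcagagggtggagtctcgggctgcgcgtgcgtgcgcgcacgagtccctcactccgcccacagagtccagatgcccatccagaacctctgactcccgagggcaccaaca
The Insig1 window held CACGTG at -101 and ATTGG at -216 from the start site. The outermost Insig2 window held 3 CCAAT boxes, at -136, -46 and -29 from the start site, and the other 2 Insig2 windows held 0. The sterol element core was in none of the Insig windows, and no statement on a factor follows from its absence in 300 bases. The deposited gene values sum the transcripts of all Insig2 starts, so which of them was lower in oligo-1 livers cannot be read from these data.

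The order of the Insig genes within a liver differed between the groups. Insig1 made up 67.3%, 69.2% and 70.0% of the summed Insig1 and Insig2 TPM in oligo-1 livers, against 23.9%, 29.4%, 46.0% and 16.7% in controls. Insig1 thus exceeded Insig2 in all 3 oligo-1 livers, at 2.06, 2.25 and 2.33 times, and Insig2 exceeded Insig1 in all 4 controls, at 3.18, 2.40, 1.18 and 5.0 times. Control 3 came nearest to equal levels. The log2 ratio of Insig1 to Insig2 was higher by 2.52 in oligo-1 livers than in controls (exact permutation test, two-sided, p = 0.0571, the smallest that 3 against 4 livers allow, adjusted p = 0.229 over 4 quantities). Because both genes are read in the same library, this ratio does not depend on how libraries are scaled. It ranged from 2.20 to 2.90 when single livers were left out and was 1.89 without controls 1 and 4 (exact p = 0.2).

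**Figure D2:**
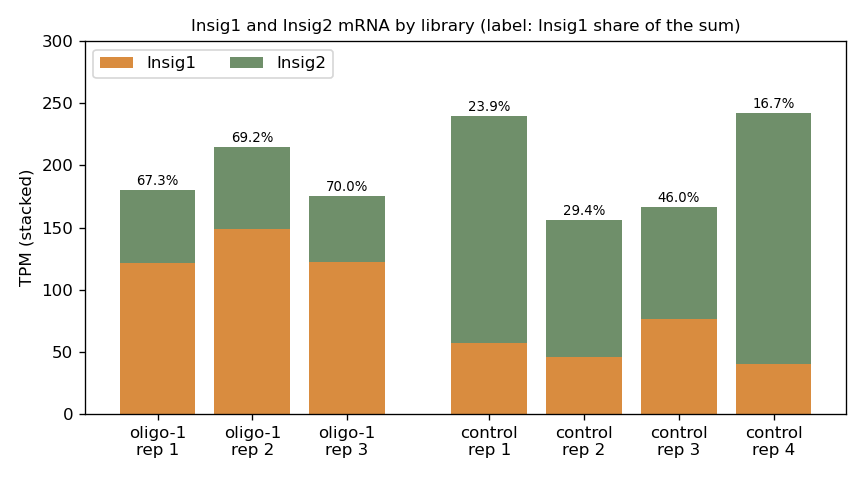
Stacked TPM of Insig1 (lower part of each bar) and Insig2 (upper part) in each library, oligo-1 livers on the left and controls on the right, with the Insig1 share of the sum printed above. The share is 67.3% to 70.0% in oligo-1 livers and 16.7% to 46.0% in controls, while the heights of the bars overlap.

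The summed Insig mRNA did not differ detectably. It was 180.2, 215.1 and 175.4 TPM in oligo-1 livers, against 240.0, 156.5, 166.8 and 242.4 TPM in controls. The oligo-1 values lay between the lower and the higher pair of controls. On the log2 scale oligo-1 livers differed from controls by -0.06 (exact permutation test, two-sided, p = 0.857, adjusted p = 0.971). The sign turned with the scaling, at 0.13 after trimmed-mean scaling and 0.0072 after rescaling without the Mup genes, and was 0.035 without control 1, 0.040 without control 4 and 0.23 without both. Set against the escort, the summed Insig TPM was 5.39, 6.21 and 5.56 times that of Scap in oligo-1 livers, against 9.56, 8.81, 5.63 and 9.80 times in controls. Controls 1, 2 and 4 stood above all oligo-1 livers in this ratio, and control 3 was level with them. The log2 ratio of Scap to the summed Insig genes was higher by 0.53 in oligo-1 livers (exact permutation test, two-sided, p = 0.114, adjusted p = 0.229), and by 0.30 without controls 1 and 4 (exact p = 0.4).

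The genes of the cleaving proteases were not detectably different. Mbtps1, encoding S1P (ENSMUSG00000031835.16; chromosome 8, 119508156 to 119558735, minus strand, mm10), had 9.55, 10.2 and 4.87 TPM in oligo-1 livers, against 11.3, 6.85, 10.9 and 10.6 TPM in controls. The groups overlapped, with 1 low liver in each, oligo-1 liver 3 and control 2. The log2 fold change was -0.28 (SE 0.28, 95% interval -0.91 to 0.35, limma adjusted p = 0.791), and 0.017 without oligo-1 liver 3. Without control 2, the oligo-1 values of Mbtps1 lay below those of the 3 remaining controls, which put 2 members below all controls in place of 1. That omission lowered the genes as a whole. The median of all genes was then -0.25, and 1505 of 10379 genes were lower at an unadjusted limma p below 0.05. The share of all genes below the 3 remaining controls was not counted.

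Mbtps2, encoding S2P (ENSMUSG00000046873.18; chromosome X, 157535371 to 157598715, minus strand, mm10), was the lowest of the 7 members. It had 2.96, 1.88 and 2.22 TPM in oligo-1 livers, against 4.07, 1.69, 2.46 and 4.62 TPM in controls. As for Insig2, controls 1 and 4 were the highest, and controls 2 and 3 lay within or below the oligo-1 range. The log2 fold change was -0.28 (SE 0.29, 95% interval -0.94 to 0.38, limma adjusted p = 0.799), and its sign turned to 0.12 without controls 1 and 4. It was -0.48 without control 2, -0.17 without control 1, -0.12 without control 4 and -0.18 without oligo-1 liver 2. The single RefSeq windows of Mbtps1 and Mbtps2 held 0 copies of the sterol element core, CACGTG and CCAAT.

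The order of the members by mean TPM differed between the groups mainly at its top. In oligo-1 livers it ran Insig1 (131.0 TPM), Insig2 (59.2), Srebf1 (57.9), Scap (33.2), Srebf2 (12), Mbtps1 (8.21) and Mbtps2 (2.35). The ranges of Insig2 and Srebf1 overlapped there, as did those of Srebf2 and Mbtps1. In controls the order was Insig2 (146.3 TPM), Insig1 (55.1), Srebf1 (34.8), Scap (24.3), Mbtps1 (9.91), Srebf2 (7.40) and Mbtps2 (3.21). Among controls the ranges of Insig1 and Srebf1, of Srebf1 and Scap, and of Mbtps1 and Srebf2 overlapped. The spread between livers was widest for Mbtps2 and Insig2 in controls (coefficients of variation 42.7% and 37.1%) and narrowest for Scap in oligo-1 livers (4.66%).

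**Figure D3:**
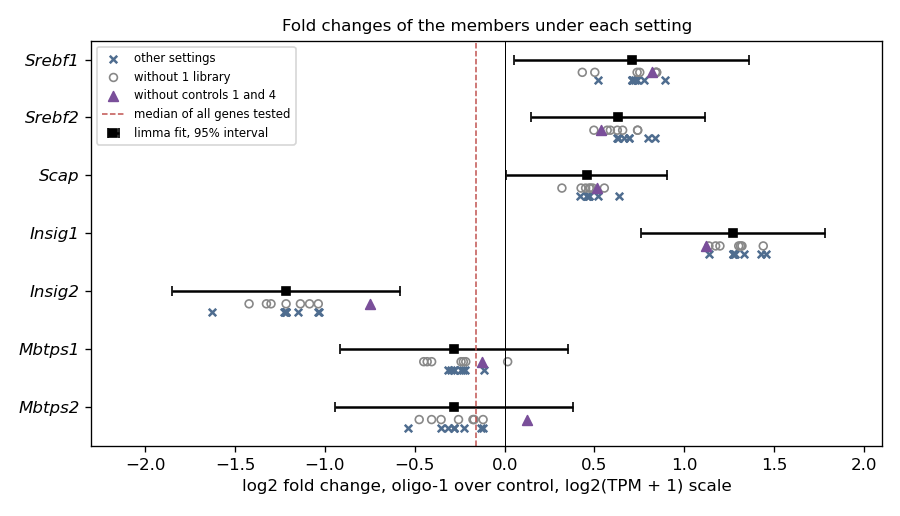
Log2 fold change of each member, oligo-1 over control, on the log2(TPM + 1) scale (horizontal axis). Squares with bars are the limma fit with its 95% interval, open circles leave out 1 library, triangles leave out controls 1 and 4, crosses are the other settings, and the dashed line is the median of all genes tested (-0.16). Insig1 stays between 1.12 and 1.45 and Insig2 between -1.63 and -0.75, while Mbtps1 and Mbtps2 each cross 0 under 1 setting.

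Among genes that serve the same steps, none differed at an unadjusted limma p below 0.05. Of 12 tested genes for the ubiquitin ligases that act on INSIG and the ER degradation machinery, 0 had an unadjusted limma p below 0.05 and the median log2 fold change was -0.21, near the median of all genes (-0.16). The smallest p in this list belonged to Nploc4, a cofactor of the p97 segregase (log2 fold change -0.49, limma adjusted p = 0.768), followed by Vcp, which encodes p97 (-0.24), and Faf2 (-0.25). Of the 5 genes listed as helpers of SCAP and S1P, 0 passed, with a median of -0.22. Hsp90aa1, a chaperone of the SCAP complex, had 63.7, 40.2 and 44.6 TPM in oligo-1 livers, against 138.5, 54.6, 56.4 and 103.8 TPM in controls, where again controls 1 and 4 were high (log2 fold change -0.74, limma adjusted p = 0.768). Nucb1 (-0.22), Hsp90ab1 (-0.26) and Spring1, which activates S1P (-0.12), followed. The 10 COPII coat genes gave 0 passing genes and a median of -0.13, led by Sar1a (-0.40, limma adjusted p = 0.768), Sec23a (-0.33), Sec23b (-0.55) and Sec24b (-0.30).

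The other lists around the members were alike in this respect. Of 12 genes for SREBP turnover and coactivators, 0 had a limma p below 0.05 and the median log2 fold change was -0.20. The leading ones were Gsk3b, a kinase that marks nuclear SREBP for destruction (-0.30, limma adjusted p = 0.775), Crtc2 (-0.51), Ncor1 (-0.27) and Lpin1 (0.41). Of 14 transcription factor genes known to act at Srebf1 or Srebf2, 0 passed, with a median of -0.11. Nfyb, a subunit of NF-Y, had 13.8, 12.4 and 11.8 TPM in oligo-1 livers, against 11.1, 8.03, 8.04 and 9.90 TPM in controls, without overlap (log2 fold change 0.42, limma adjusted p = 0.768). Its partner subunits Nfya and Nfyc had log2 fold changes of -0.0084 and -0.18. Bhlhe40 (0.55), Foxo1, a factor restrained by insulin (-0.46), and Tfe3 (-0.46) came next. Foxo1, like Gsk3b, lay below all controls, as did 4.98% of all genes tested. The pattern of Nfyb, above all controls, was seen in 2% of them. Of the 6 tested of 7 other substrates of S1P and S2P, membrane-bound factors of the ER among them, 0 passed and the median was -0.28. Creb3l3, a liver factor of lipid metabolism, had 156.1, 121.9 and 132.0 TPM in oligo-1 livers, against 173.4, 166.3, 161.3 and 170.8 TPM in controls, all of them higher (log2 fold change -0.30, limma adjusted p = 0.768). Atf6 (-0.49), Creb3 (-0.38) and Gnptab (0.43) followed.

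Most known targets of nuclear SREBP had higher values in oligo-1 livers. Of 23 genes of sterol synthesis and uptake, 20 were higher at an unadjusted limma p below 0.05, 0 were lower, 16 lay above all controls, and the median log2 fold change was 1.22. None passed after adjustment over all genes. Their summed TPM was 1306, 1618 and 1870 in oligo-1 livers, against 789, 550, 1031 and 776 in controls, with control 3 again the nearest. The smallest p belonged to Pmvk, a mevalonate pathway kinase (log2 fold change 1.49), Msmo1 (1.84), Idi1 (2.06) and Sqle (2.18), the last encoding squalene epoxidase. Of 16 genes of fatty acid synthesis, 10 were higher at that p, 0 were lower, 6 lay above all controls, and the median was 1.04. Their summed TPM was 4540, 6242 and 5314 in oligo-1 livers, against 2519, 1484, 4040 and 2734 in controls. Scd1, with the highest mean TPM of the list, had 2807, 3839 and 2817 TPM in oligo-1 livers. In controls 1 to 4 it had 1366, 333.9, 2431 and 1492 TPM, so the sum largely follows this gene. Me1, malic enzyme (1.55), Pnpla3 (1.40), Fasn, fatty acid synthase (1.69), and Acss2 (2.19) had the smallest p. The count of 10 was 5 without oligo-1 liver 2, the liver with the highest Srebf1. The lists were chosen with earlier results of these livers known, so their counts are descriptions.

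**Figure D4:**
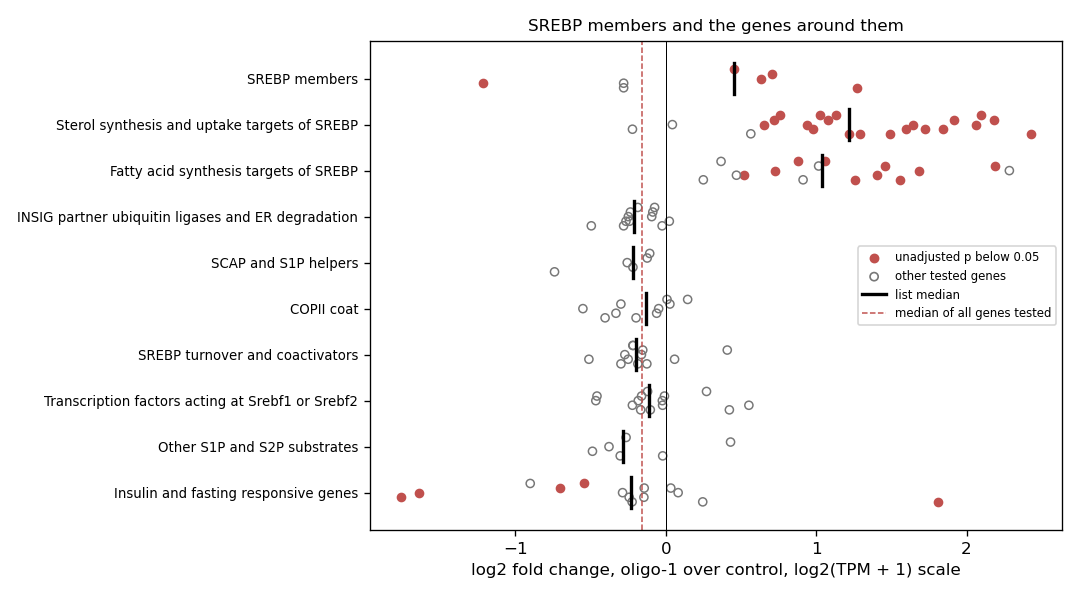
Log2 fold change (oligo-1 over control, log2(TPM + 1) scale) of each tested gene in the lists around the SREBP members, 1 point per gene and 1 list per line. Filled points have an unadjusted limma p below 0.05, black bars are list medians, and the dashed line is the median of all genes tested (-0.16). The medians are 1.22 for sterol and 1.04 for fatty acid targets and lie between -0.28 and -0.11 for the 7 lists under them.

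Insulin and fasting responsive genes were looked at because Insig2 and Srebf1 both respond to insulin. Of 14 such genes, 1 was higher and 4 were lower at an unadjusted limma p below 0.05, with a median log2 fold change of -0.23. Pklr, liver pyruvate kinase, had 131.7, 218.5 and 121.5 TPM in oligo-1 livers, against 34.1, 39.4, 108.0 and 22.4 TPM in controls (log2 fold change 1.81). Igfbp1, which insulin lowers, had 124.6, 77.8 and 107.6 TPM in oligo-1 livers, against 454.2, 448.9, 126.2 and 552.5 TPM in controls (-1.76). Pdk4, a fasting-induced kinase, had 1.30, 1.14 and 1.63 TPM in oligo-1 livers, against 9.21, 10.2, 1.31 and 9.78 TPM in controls (-1.64). In all of these control 3 was close to the oligo-1 livers and far from the other controls, as it was the control nearest to oligo-1 in Srebf1, Scap, Insig1 and Insig2. G6pc, the last step of glucose output, was lower (-0.70), as was Ppargc1a. By the account of the study, all mice went without food for some hours before euthanasia. The labels give no feeding state for the single mice, and its part in the Insig2 and Srebf1 values was not tested.

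The genes most like each member over the 7 livers were found among 6533 tested genes with a mean of at least 5 TPM, by Pearson r on log2(TPM + 1), as a description with no test. Nearest to Srebf1 were Camk1d (r = 0.99), Acaca, which encodes the committed enzyme of fatty acid synthesis (0.98), Aqp8 (0.97) and Zfp768 (0.97). Aqp8 shared the single high liver of Srebf1, with 82.0, 256.1 and 113.4 TPM in oligo-1 livers, against 49.9, 12.8, 83.6 and 68.1 TPM in controls. Nearest to Srebf2 were Il15ra (r = 0.97), Sesn1 (0.94), Mettl26 (0.90) and Slc17a8 (0.89), none of them a gene of the sterol list. Nearest to Insig1 were Me1 (r = 0.98), Pmvk (0.98), Eva1a (0.97) and Fdps (0.97), of which all but Eva1a were in the SREBP target lists. Nearest to Insig2 were Cybc1, Ahsg, Ifngr1 and Lrrc8a (r = 0.99 each). Ahsg, which encodes the secreted liver protein fetuin-A, had 5637, 5563 and 5271 TPM in oligo-1 livers, against 10431, 7679, 6468 and 10393 TPM in controls, the same order of controls as the split in Insig2 between the pair 1 and 4 and the pair 2 and 3. Insig1 and Insig2 themselves ran opposite (r = -0.89). These points share 2 groups of livers, so the correlations hold the difference between groups as well as the spread within them.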

How the data were processed

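Total RNA was isolated with TRIzol and libraries were prepared by standard Illumina procedure, per the labels. The authors quantified protein-coding genes with kallisto (version not given in the sources used here; build mm10 in the submitters' processing notes) and deposited TPM, which divide each transcript's estimated reads by its length and scale each library to a fixed total. The listed genes summed to 85.8% to 88.3% of the full scale per library. TPM keeps no depth, so no counting interval is given. Values were tested as log2(TPM + 1) with limma-trend (limma 3.58.1, R 4.3.3), oligo-1 against control, two-sided, without covariates, on genes that reached 1 TPM in 3 or more libraries, with Benjamini-Hochberg adjustment over all of them and a threshold of 0.05. The procedure was tested on simulated data with independent noise in each gene and library. Those data held no differences shared by many genes, such as those of controls 1 and 4, so its behaviour under them was not tested. The 4 ratios and sums were tested by exact permutation of livers. Groups came from the library names. The members and the 14 other gene lists were chosen with earlier results of these data known, as was leaving out controls 1 and 4. The text names all members, up to 4 genes of smallest p from each list other than the marker lists, and the 4 genes most like Srebf1, Srebf2, Insig1 and Insig2. A gene that this rule names is not reported here. Where another gene is named, it was chosen after its values were seen. Gene positions are from GENCODE M21 (mm10) and promoter windows from RefSeq (GRCm38.p6), which matched 7 of 7 members. Alternatives were other pseudocounts (0.5 and 0.1), filters, scalings, variance models and weights, a replicate block, and leaving out livers.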

Additional observations from a re-analysis of the deposited data

Results flagged for a closer look

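Mbtps1, the gene of site-1 protease, had 1 control far from the others. Control 2 was at 6.85 TPM, below the other 3 controls at 11.3, 10.9 and 10.6 TPM, and this gap was 0.853 of the whole range of the 4 controls, above Dixon's critical value for 4 samples. Of the 7 members and 4 ratios or sums looked at in this way, it was the only value past its limit, and chance alone passes about 1 in 20 such groups. Without control 2, Mbtps1 had a log2 fold change of -0.43 (limma adjusted p = 0.387), where the median of all genes tested was -0.25.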

How the results depend on the processing

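Insig1 stayed higher and Insig2 lower, at an unadjusted limma p below 0.05, in 17 of 17 alternatives, Srebf1 and Srebf2 stayed higher at that p in 15 of 17 each, and Scap in 8 of 17. With array weights, limma called 6 members, but also 4766 of the 10455 genes tested. At an unadjusted p below 0.05 it counted 2 members (Insig2 and Mbtps2) and 1 sterol target as lower. Of all genes tested, 5154 were lower and 688 higher at that p. The replicate numbers did not pair the livers: deviations from the group means of same-numbered livers correlated at 0.078, -0.015 and -0.11 for numbers 1 to 3. With a replicate block, limma called 2 members (Insig1, adjusted p = 0.00903, and Insig2, adjusted p = 0.0192) among 86 genes in all. In that fit 2 members were higher at an unadjusted p below 0.05. Number 4 occurs only among controls, so the block gave control 4 a term of its own and in effect left it out. The block fold changes equal those without control 4 (Insig1 1.14, Insig2 -1.04), so these 2 alternatives are not separate in fold change. When 1 liver was left out, the number of members called was 0 to 1 (without control 3, where 29 of 10353 genes were called). Members higher at an unadjusted p below 0.05 numbered 2 to 4, and fatty acid targets higher at that p 5 to 13. Members below all controls numbered 1 to 2. The count of 2 was without control 2, where 1505 of 10379 genes were lower at that p. Over the same omissions other values also moved. The log2 sum of the Insig genes ranged from -0.17 to 0.040, the log2 ratio of Srebf1 to Srebf2 from -0.31 to 0.31, and the log2 fold changes of Mbtps1 from -0.45 to 0.017 and of Mbtps2 from -0.48 to -0.12. Reversed values were 0.13 (trimmed-mean scaling), 0.0072 (without Mup genes) and 0.23 (without controls 1 and 4) for the Insig sum, and 0.12 for Mbtps2 without controls 1 and 4; the cause was not tested. Trimmed-mean scaling moved the median of all genes to 0.0017 from -0.16 and turned the split of genes at an unadjusted p below 0.05 to 506 higher and 387 lower, against 189 and 444. Without controls 1 and 4 it was 690 and 277. Depth is unknown, which limits what can be said of Mbtps2 at its low level.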
